A study of Mus musculus with 9 samples.

Results

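The comparison set 6 thyroid libraries from mice labelled knockout for a SWI/SNF subunit, taken as 1 group, against 3 libraries from wild-type thyroid, and asked which transcript levels changed in the same way in both knockout genotypes. Of the 9 libraries of the study, 3 were labelled Arid2 KO, 3 were labelled Smarcb1 KO and 3 were labelled wild type, so all 9 entered. The knockout genotypes were weighted equally: the effect is the mean of the Arid2 and Smarcb1 group means minus the wild-type mean, on the log2 scale. All RNA came from flash-frozen mouse thyroid. The strain, age and sex of the mice, the allele or Cre driver behind each knockout, the cell type it acted in and whether the 3 libraries of a group came from separate animals are not given in the sources used here. The p-values therefore measure only the spread between these libraries.

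SWI/SNF complexes are chromatin remodellers that use ATP to slide or evict nucleosomes and so open enhancers and promoters to transcription factors. Smarcb1 is a core subunit of the canonical complexes, called BAF and PBAF. Arid2 is found in PBAF alone. A change shared by both genotypes is thus a change seen with a subunit common to both forms and with a subunit of 1 form.

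Total counts ran from 33666251 to 89553766 per library, with the Arid2-labelled libraries the deepest. Tg, the gene of thyroglobulin, took 24.1% to 30.8% of the counts in every library. Parathyroid, thymus, muscle and blood markers differed between libraries within a group. Rag1, a recombinase of developing lymphocytes, reached 502 CPM (counts scaled to a common library size by the TMM method) in replicate 1 of the Arid2-labelled group. It reached 52.6 CPM in replicate 2 of the Smarcb1-labelled group, and was at most 0.145 CPM in the other 7. The Y-linked gene Ddx3y had 0 counts in Smarcb1-labelled replicate 3, where Xist stood at 809 CPM, against at most 2.60 CPM elsewhere. Counts and calls without the 2 libraries with high Rag1 are given with those of the other left-out libraries.

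The targeted genes did not verify the labels. Arid2 measured 94.6, 77.7 and 59.9 CPM with the Arid2 label, 91.3, 77.2 and 93.8 CPM with the Smarcb1 label and 68.9, 75.0 and 67.8 CPM in wild type, and the groups overlapped. Its log2 fold change over both genotypes was 0.22 (SE 0.14, edgeR quasi-likelihood adjusted p = 0.43), and the exact two-sided permutation p of 6 against 3 libraries was 0.238. Smarcb1 stood at 57.3, 59.4 and 64.6 CPM in the Arid2-labelled, 47.5, 53.7 and 59.4 CPM in the Smarcb1-labelled and 65.9, 71.7 and 69.3 CPM in the wild-type libraries. All 6 knockout-labelled libraries lay below the 3 wild-type ones, in the Arid2-labelled group too, with a change of -0.28 in log2 units (SE 0.09, adjusted p = 0.167) and an exact permutation p of 0.0238, where the smallest possible is 0.0119. Counts over a whole gene would include exons outside a deletion, so these values neither bear out nor contradict the labels, and the groups are called Arid2-labelled and Smarcb1-labelled.

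With both genotypes weighted equally, 267 of 17079 tested genes passed a Benjamini-Hochberg adjusted p under 0.05 (1.56%), 58 higher (0.34%) and 209 lower (1.22%). A change was counted as common where the gene passed that test, all 6 knockout-labelled libraries lay on 1 side of all 3 wild-type libraries, and the Smarcb1-labelled and Arid2-labelled groups were not themselves called different. These conditions held for 115 genes (0.673%), 41 of them higher (0.24%) and 74 lower (0.433%). Non-overlap of 6 against 3 libraries by itself held for 1142 genes (6.69%), 580 higher (3.4%) and 562 lower (3.29%). The common rises had a median log2 fold change of 1.03, with 1.04 in the Arid2-labelled and 1.01 in the Smarcb1-labelled libraries. The common falls had a median of -1.01, with -0.86 and -0.95. These medians describe genes chosen for their change, and both genotype values share the wild-type libraries. A genotype difference that is not called does not show that the genotypes act alike.

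Most of the remaining calls were unequal between the genotypes. Of the 267 genes, 150 were also called between Smarcb1-labelled and Arid2-labelled thyroid, a comparison in which 2779 genes passed (16.3%; 6.95% higher and 9.32% lower in Smarcb1-labelled thyroid), and 120 of the 150 had the larger fold in the Smarcb1-labelled libraries. Taken alone, the Smarcb1-labelled libraries differed from wild type in 1349 genes (7.9%; 2.15% higher and 5.74% lower) and the Arid2-labelled libraries in 95 (0.556%; 0.234% higher and 0.322% lower). Of the 267 genes, 229 were called in the first of these, 59 in the second and 7 in neither. The stricter count, genes called in each genotype's own comparison in the same direction, was 28 (0.164%), 8 higher (0.0468%) and 20 lower (0.117%).

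Among the common changes under the naming rule (an average log2 CPM of at least 1 and no provisional symbol), the fall of Tmem63a had the smallest adjusted p. Tmem63a encodes an ion channel opened by osmotic and mechanical stress. Tmem63a had levels of 94.6, 104.8 and 110.1 CPM in wild type, 45.2, 48.9 and 50.9 CPM with the Arid2 label and 39.2, 47.6 and 50.4 CPM with the Smarcb1 label. The highest knockout-labelled library was thus far below the lowest wild-type library, and both knockout groups covered nearly the same range. The estimated log2 change was -1.13 (SE 0.10, adjusted p = 0.00251), with -1.09 in Arid2-labelled and -1.17 in Smarcb1-labelled thyroid. Under every other setting tried, including each of the 9 fits that left out 1 library, it passed an adjusted p under 0.05, and its log2 fold change stayed between -1.19 and -1.08. The promoter of Tmem63a is shown because this was the only common change under the naming rule called in all of those fits. It is the 300 bases from 250 before to 50 after the annotated start (RefSeq, GRCm38.p6, chr1:180942268-180942567, plus strand), printed 5′ to 3′ with every CpG dinucleotide in capitals. It holds 33 CpG dinucleotides, against a median of 19 over the promoters of 12520 tested genes.
Tmem63a promoter: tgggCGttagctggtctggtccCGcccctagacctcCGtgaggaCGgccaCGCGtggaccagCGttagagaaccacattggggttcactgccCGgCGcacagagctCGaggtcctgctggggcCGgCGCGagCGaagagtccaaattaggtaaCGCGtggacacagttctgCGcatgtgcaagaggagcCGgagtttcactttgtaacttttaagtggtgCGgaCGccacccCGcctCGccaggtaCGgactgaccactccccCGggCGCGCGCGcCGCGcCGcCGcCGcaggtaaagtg

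**Figure D1:**
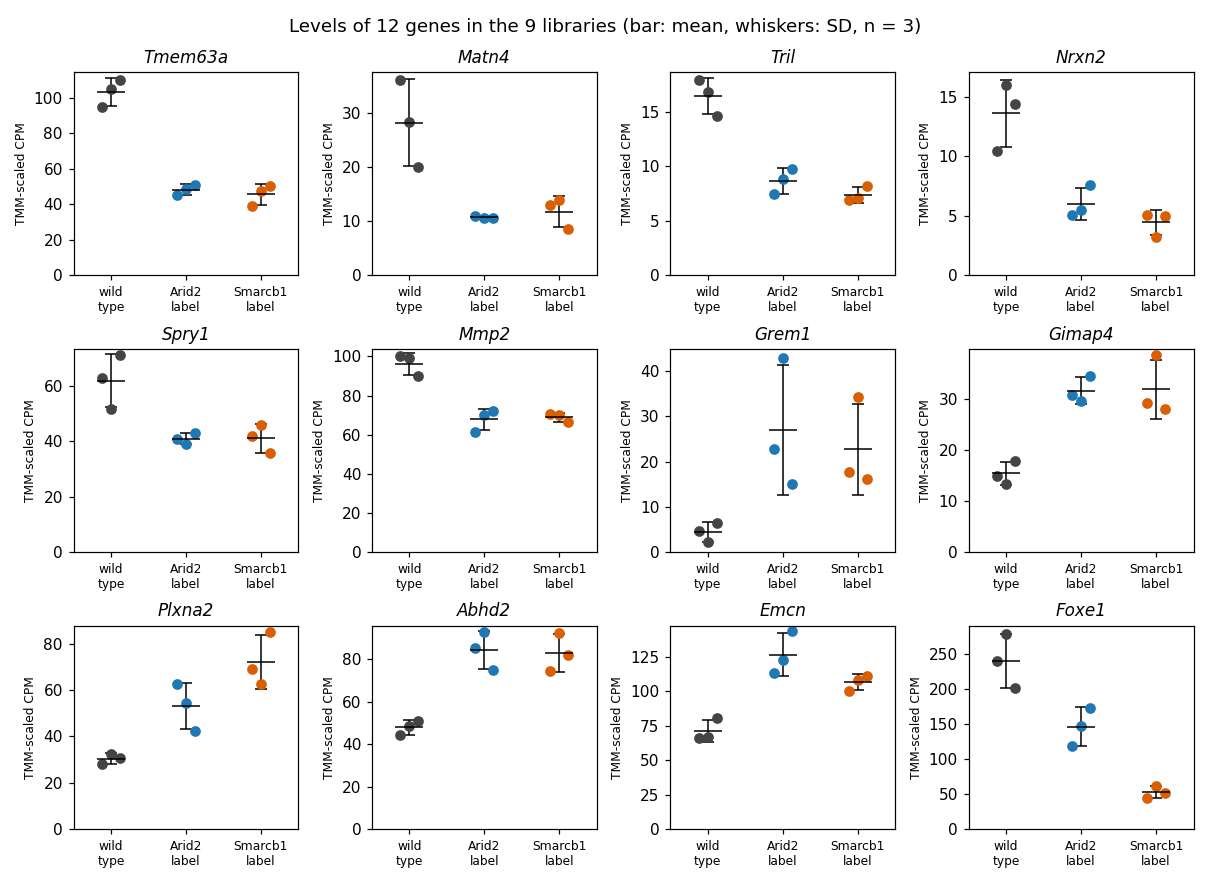
TMM-scaled CPM of 12 genes in each library, with the mean and SD of each group (n = 3); Tmem63a, Matn4, Tril, Nrxn2, Spry1 and Mmp2 fell and Grem1, Gimap4, Plxna2, Abhd2 and Emcn rose in both genotypes, while Foxe1 fell further in the Smarcb1-labelled libraries. In 11 of the panels the knockout-labelled groups overlap or lie close together on 1 side of wild type, and in the Foxe1 panel the groups form 3 separate levels.

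Matn4 was among the 12 largest falls. Matn4, a matrilin that links matrix filaments, measured 36.2, 28.4 and 20.1 CPM in wild type, 11.1, 10.6 and 10.6 CPM with the Arid2 label and 13.1, 13.9 and 8.50 CPM with the Smarcb1 label. The Arid2-labelled values were almost identical, and all 6 lay below the lowest wild-type library. The change was -1.33 in log2 units (SE 0.20) at an adjusted p of 0.0205, with -1.39 in Arid2-labelled and -1.26 in Smarcb1-labelled thyroid. It was no longer called when replicate 2 of the Arid2-labelled group was left out (adjusted p = 0.0755), nor without wild-type replicate 1 (0.0957) or wild-type replicate 2 (0.0974). Mmp2, the gelatinase that cleaves denatured collagen, measured 100, 99.1 and 89.9 CPM in wild type and between 61.6 and 72.0 CPM in the 6 others. Its fall was smaller, at -0.49 (SE 0.08, adjusted p = 0.0287), and nearly equal in the genotypes (-0.51 and -0.48), but only 3 of the 9 fits that left out a library called it. Emilin1, an elastic-fibre glycoprotein (-1.03, SE 0.20), Loxl1, which crosslinks elastin (-0.94, SE 0.16), and Fbln1, a fibulin of basement membranes and elastic fibres (-0.76, SE 0.14), were called in 2 of those 9 fits each.

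In the list of 37 matrix proteins, proteases and crosslinkers, which does not hold Matn4 or Emilin1, 1 gene rose, 4 fell and 7 had a positive fold change, where 0.34% of all tested genes rose and 1.22% fell. The rise and 3 of the 4 falls were common changes. The list's median log2 fold change was -0.22, where the median of all tested genes was 0.027 and 9202 of 17079 were positive. These shares over all tested genes are also the comparison for the lists below. The 1 rise was Adamts1, a secreted metalloprotease, at 0.97 (SE 0.18, adjusted p = 0.0393). It measured 8.58, 7.23 and 12.3 CPM in wild type and between 14.0 and 22.3 CPM in the others. The 4 falls were Mmp2, Loxl1, Fbln1 and Spon1, a spondin of the matrix. Spon1 had levels of 103, 104 and 73.5 CPM in wild type, 31.1, 31.2 and 24.0 CPM with the Arid2 label and 55.5, 35.7 and 57.1 CPM with the Smarcb1 label. Its log2 fold change was -1.31 (SE 0.17, adjusted p = 0.0158), but the genotypes were called different, so it is not a common change. Of 21 collagen genes, 1 fell and 3 were positive, with a median of -0.29. The fall was that of Col5a1, a chain of fibril-nucleating type V collagen, at -0.55 (SE 0.11, adjusted p = 0.0424), with -0.15 in Arid2-labelled and -0.95 in Smarcb1-labelled thyroid, which were called different.

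Fibroblast markers also stood mostly lower. Of 10 fibroblast markers, 1 fell (Fbln1) and 1 was positive, with a median of -0.31. Their summed level was 2640 to 2950 CPM in wild type, 2230 to 2520 CPM in the Arid2-labelled and 1980 to 2640 CPM in the Smarcb1-labelled libraries. Col1a1 and Col1a2, the chains of type I collagen, gave -0.61 (adjusted p = 0.103) and -0.40 (adjusted p = 0.114). In bulk tissue, fewer cells of a type and less RNA per cell cannot be told apart, and the part of fibroblast content in the matrix falls was not tested.

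The other large falls were of genes with differing roles. Tril, a leucine-rich partner of Toll-like receptor 4, measured 17.9, 16.8 and 14.6 CPM in wild type, 7.43, 8.81 and 9.78 CPM with the Arid2 label and 6.92, 7.08 and 8.25 CPM with the Smarcb1 label. The groups did not overlap, and the change was -1.04 in log2 units (SE 0.13, adjusted p = 0.0152). Nrxn2, a neurexin of synaptic adhesion, measured 10.5, 16.0 and 14.4 CPM in wild type and between 3.26 and 7.57 CPM in the others, a change of -1.40 in log2 units (SE 0.21, adjusted p = 0.0209). Both were called in 6 of the 9 fits that left out a library. Caskin1, a synaptic scaffold protein, gave -1.33 (SE 0.24), and Nkd2, a Dishevelled-binding antagonist of Wnt signalling, gave -1.17 (SE 0.20). Scx, the tendon transcription factor scleraxis, gave -1.20 (SE 0.22), Mtap1a, a microtubule-associated protein, -1.04 (SE 0.17), and Dclk3, a kinase of the doublecortin-like family, -1.18 (SE 0.19). Zfp580, a zinc-finger gene, gave -1.12 (SE 0.20). Between 2 and 4 of the 9 fits that left out a library called each of these 6. With the GC trend removed, Zfp580 gave -0.46 (adjusted p = 0.399), and Caskin1 (0.107), Scx (0.0882), Nkd2 (0.0556) and Nrxn2 (0.114) were no longer called.

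Grem1 had the largest rise under the naming rule. Grem1 encodes gremlin, a secreted antagonist of bone morphogenetic proteins. It had levels of 4.79, 2.22 and 6.41 CPM in wild type, 22.9, 42.9 and 15.1 CPM with the Arid2 label and 17.8, 34.2 and 16.2 CPM with the Smarcb1 label. The groups did not overlap, but the knockout-labelled libraries spread from 15.1 to 42.9 CPM. The change was 2.47 in log2 units (SE 0.47, adjusted p = 0.0414), with 2.59 and 2.35 in the genotypes. The call held in 1 of the 9 fits that left out a library, that without Smarcb1-labelled replicate 2 (adjusted p = 0.0446); the largest of the other 8 values was 0.171, without wild-type replicate 1. Removing each library's trend over GC content gave 2.34 with an adjusted p of 0.0606. In the list of 26 tested genes of the BMP and TGF-beta pathway, Grem1 rose and Smad6, an inhibitory Smad, fell (-0.96, SE 0.18, adjusted p = 0.0408). Smad6 gave -0.33 in Arid2-labelled and -1.59 in Smarcb1-labelled thyroid, which were called different.

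Plxna2, a receptor for semaphorins, measured 27.8, 32.4 and 30.7 CPM in wild type, 62.4, 54.4 and 42.4 CPM with the Arid2 label and 68.9, 62.5 and 84.9 CPM with the Smarcb1 label. The wild-type libraries lay close together and below all 6 others, and the change was 1.03 in log2 units (SE 0.15, adjusted p = 0.018). Eif3j, a subunit of translation initiation factor eIF3, rose by 1.38 (SE 0.20, adjusted p = 0.018), from 4.95 to 5.61 CPM in wild type to between 7.52 and 16.8 CPM. The mouse genome has near-identical copies of Eif3j, so its count is uncertain. Plxna2 and Eif3j each passed in 5 of the 9 fits that left out a library. Abhd2, a lipid hydrolase named after its values were seen, measured 44.2, 48.6 and 50.9 CPM in wild type and between 74.3 and 92.8 CPM in the 6 others, with folds of 0.82 and 0.79 in the genotypes.

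Another 8 genes were among the 12 largest rises. Slc15a2, a proton-coupled peptide transporter, gave 1.5 (SE 0.30, adjusted p = 0.0496). Galns, a lysosomal enzyme of keratan sulphate breakdown, had levels of 79.0, 154 and 71.1 CPM in wild type, 366, 316 and 395 CPM with the Arid2 label and 184, 226 and 202 CPM with the Smarcb1 label. It gave 1.42 (SE 0.24, adjusted p = 0.0325), or 1.82 and 1.01 in the genotypes. Mybl1, a Myb-family transcription factor, gave 1.41 (SE 0.28), and Cd38, an NAD-consuming ectoenzyme of immune cells, 1.34 (SE 0.23). Stc1, the secreted glycoprotein stanniocalcin, gave 1.28 (SE 0.26), and Tmem117 gave 1.18 (SE 0.19). Apobec3, a cytidine deaminase that restricts retroviruses, and Pgm5, an adherens-junction protein related to phosphoglucomutase, each gave 1.17 (SE 0.22 and 0.24). Pgm5 was called in 0 of the 9 fits that left out a library, Slc15a2, Mybl1 and Stc1 in 1 each, Galns and Apobec3 in 2 each, Cd38 in 3 and Tmem117 in 4. The 6 most abundant common changes were Galns, Pcbp1, Serping1, Pisd-ps1, Emcn and Trim56. Trim56, a ubiquitin ligase of innate immunity, rose by 0.47 (SE 0.09), and Pcbp1, an RNA-binding protein, and Serping1, the C1 inhibitor of complement, changed by -0.43 (SE 0.08) and -0.45 (SE 0.09). Serping1 was called in 0 of the 9 fits that left out a library and Pcbp1 and Trim56 in 2 each, and with the GC trend removed the adjusted p was 0.0649, 0.166 and 0.0838. Pisd-ps1 changed by -0.96 (SE 0.15), and as a pseudogene with a parent gene its count is uncertain.

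**Figure D2:**
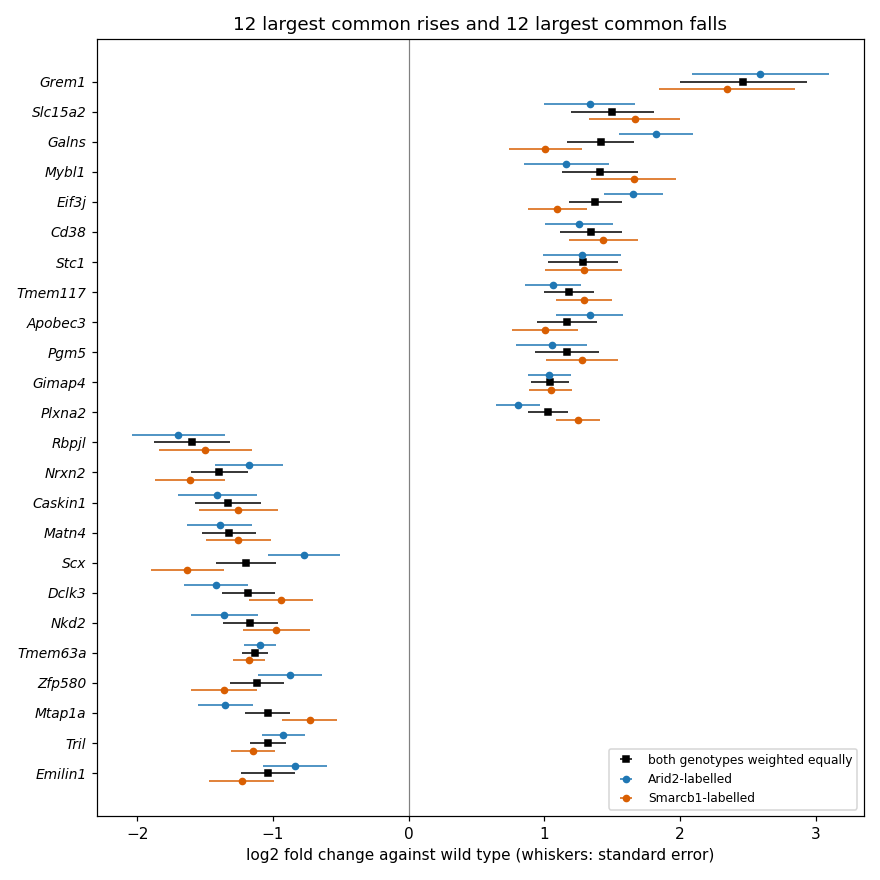
Log2 fold change against wild type with its standard error for the 12 largest rises and 12 largest falls among the common changes under the naming rule, for both genotypes weighted equally (black squares), Arid2-labelled (blue) and Smarcb1-labelled (orange) thyroid. Every genotype value lies on the same side of 0 as the combined value, which the choice of genes fixes, and the genotype values share the wild-type libraries; Galns, Scx and Mtap1a have the widest gaps between genotypes and Gimap4, Stc1 and Tmem63a the narrowest.

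Gimap4 and Gimap6 encode GTPases of the immunity-associated family, best known from the survival of lymphocytes. Gimap4 measured 15.0, 13.4 and 18 CPM in wild type, 30.8, 29.7 and 34.6 CPM with the Arid2 label and 29.3, 38.6 and 28.0 CPM with the Smarcb1 label. The 2 knockout groups overlapped each other and lay above wild type, with a change of 1.04 in log2 units (SE 0.14, adjusted p = 0.0174), or 1.04 and 1.05. Gimap6 gave 1.01 (SE 0.20, adjusted p = 0.0469). All 7 tested Gimap genes had a positive log2 fold change, and Gimap4 and Gimap6 were the 2 called. Of all tested genes, 53.9% were positive and 0.34% were called higher. Without the libraries with Rag1 above 10 CPM, Gimap4 gave 0.93 (adjusted p = 0.027) and Gimap6 0.75 (adjusted p = 0.0412), so both calls were also made without the libraries that held thymus markers. With the GC trend removed, Gimap4 gave 0.90 (adjusted p = 0.053) and Gimap6 0.88 (adjusted p = 0.0712). Gimap6 was called in 1 of the 9 fits that left out a library and Gimap4 in 6. Gimap4 was not called without replicate 2 of the Arid2-labelled group (adjusted p = 0.0509), wild-type replicate 1 (0.0869) or wild-type replicate 2 (0.086).

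Emcn, the endothelial sialomucin endomucin, rose as well. It had levels of 66.2, 67.1 and 80.4 CPM in wild type, 113.1, 122.8 and 143.8 CPM with the Arid2 label and 100.2, 108.6 and 111 CPM with the Smarcb1 label, with no overlap. The change was 0.71 in log2 units (SE 0.11, adjusted p = 0.0238), or 0.83 in Arid2-labelled and 0.58 in Smarcb1-labelled thyroid. With the GC trend removed it gave 0.56 (adjusted p = 0.127). Emcn was the 1 gene called among 12 endothelial markers, of which 11 were positive with a median of 0.50. Over all tested genes 0.34% were called higher and 53.9% were positive. The adhesion molecule Pecam1 gave 0.63 (adjusted p = 0.0846), the angiopoietin receptor Tek 0.51 (adjusted p = 0.106) and the VEGF receptor Kdr 0.54 (adjusted p = 0.201). The summed endothelial level was 622 to 849 CPM in wild type, 1060 to 1300 CPM in the Arid2-labelled and 592 to 1040 CPM in the Smarcb1-labelled libraries, so the Smarcb1-labelled range overlapped wild type. All 8 smooth muscle and pericyte markers were positive, with a median of 0.41 and 0 called. Myh11, the smooth muscle myosin, measured 30.4, 27.2 and 38.7 CPM in wild type and between 36.3 and 85.0 CPM in the others (0.93, adjusted p = 0.106). The part of blood vessel content in the rises was not tested.

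Several common changes lay side by side in the genome. Of the 115 genes, 90 were matched to a protein-coding gene of the GRCm38 annotation, and 5 pairs were immediate neighbours: Gimap4 and Gimap6, Matn4 and Rbpjl, Nrxn2 and Slc22a12, Clic3 and Ptgds, and Lap3 and Med28. Each pair moved in 1 direction. How often neighbouring genes move together over all tested genes was not counted, so the pairs are given as a description. Rbpjl, a pancreas-enriched relative of the Notch effector Rbpj, measured 4.22, 4.58 and 3.50 CPM in wild type and between 0.758 and 1.88 CPM in the others, a change of -1.60 in log2 units (SE 0.28, adjusted p = 0.0325). Ptgds, a prostaglandin D synthase, gave -1.03 (SE 0.17), and its neighbour Clic3, a chloride intracellular channel protein, -0.77. No source used here says that reads were counted by strand, so reads of overlapping neighbours cannot be told apart.

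The promoters of Gimap4 and Gimap6, and of Matn4 and Rbpjl, are shown because each pair lay side by side and moved in 1 direction (RefSeq, GRCm38.p6, 250 bases before to 50 after the start, 5′ to 3′, CpG in capitals). They lie at chr6:48684328-48684627 (plus strand), chr6:48708195-48708494 (minus strand), chr2:164405111-164405410 (minus strand) and chr2:164402944-164403243 (plus strand). The genes of each pair run towards each other on opposite strands, and the starts of Matn4 and Rbpjl lie the closer together. Reads from any overlap within a pair cannot be told apart, and their part in the shared direction was not tested. The pairs differ in composition: the rising Gimap4 and Gimap6 hold 4 CpG dinucleotides each, and the falling Matn4 and Rbpjl hold 9 and 14.
Gimap4 promoter: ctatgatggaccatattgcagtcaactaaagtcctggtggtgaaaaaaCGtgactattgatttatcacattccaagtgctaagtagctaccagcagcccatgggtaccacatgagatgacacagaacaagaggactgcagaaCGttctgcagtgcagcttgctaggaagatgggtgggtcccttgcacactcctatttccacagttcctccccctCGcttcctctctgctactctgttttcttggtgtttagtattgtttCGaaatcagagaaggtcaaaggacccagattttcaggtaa
Gimap6 promoter: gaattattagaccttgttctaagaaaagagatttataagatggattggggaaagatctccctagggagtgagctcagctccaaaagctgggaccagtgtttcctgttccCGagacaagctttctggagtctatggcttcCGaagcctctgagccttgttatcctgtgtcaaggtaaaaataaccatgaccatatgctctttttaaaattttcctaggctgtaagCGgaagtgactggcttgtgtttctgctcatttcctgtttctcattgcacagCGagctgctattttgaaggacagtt
Matn4 promoter: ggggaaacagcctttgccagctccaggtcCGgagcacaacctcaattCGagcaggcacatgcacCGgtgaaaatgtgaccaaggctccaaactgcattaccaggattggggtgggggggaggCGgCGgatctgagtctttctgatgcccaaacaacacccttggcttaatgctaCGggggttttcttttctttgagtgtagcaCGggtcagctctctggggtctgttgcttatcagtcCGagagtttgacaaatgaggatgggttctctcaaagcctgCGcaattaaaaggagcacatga
Rbpjl promoter: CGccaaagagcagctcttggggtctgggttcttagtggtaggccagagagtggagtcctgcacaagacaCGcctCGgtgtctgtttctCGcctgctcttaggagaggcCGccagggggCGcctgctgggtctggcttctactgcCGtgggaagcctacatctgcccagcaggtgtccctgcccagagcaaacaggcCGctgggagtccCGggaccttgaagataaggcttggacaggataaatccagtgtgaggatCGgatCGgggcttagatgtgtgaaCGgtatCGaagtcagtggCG

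Over all common changes with a promoter in the table, the rises (30 promoters) held a median of 12.5 CpG dinucleotides and the falls (47 promoters) 18, against 19 over all 12520. Motifs were searched on both strands. The AP-1 site TGANTCA lay in 6.67% of rising, 6.38% of falling and 5.48% of all promoters. The TEAD site GGAATG lay in 20% of rising and 21.3% of falling promoters against 12.5% of all, the CCAAT box in 36.7%, 46.8% and 38%, and the E-box CACGTG in 3.33%, 14.9% and 9.64%. The cyclic AMP response element TGACGTCA was in 0 of the rising and falling promoters and in 3% of all. With 30 and 47 promoters these shares rest on few matches, and a match describes letters in this window only.

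Some of the largest folds lay below the level set for named genes or had provisional symbols, and are given here because of their size. Gm4737, a protein-coding gene without introns in the GRCm38 annotation, had 170, 209 and 84 counts in the wild-type libraries and 14, 5, 2, 1, 3 and 1 in the 6 knockout-labelled libraries, a sum of 463 against 26 although the knockout-labelled libraries were the deeper. The estimated log2 change was -6.14 (SE 0.46, adjusted p = 0.00196). Gm9770, a processed pseudogene, gave -3.55 (SE 0.30, adjusted p = 0.00251). Genes without introns can share reads with a related gene elsewhere, so both counts are uncertain. Slc16a8, a lactate transporter of the retinal pigment epithelium, had 95, 120 and 50 counts in wild type and between 7 and 47 in the others, with -2.85 (SE 0.32, adjusted p = 0.00696). Gm4737, Gm9770, Slc16a8 and Tmem63a were the 4 common changes called in all 9 fits that left out a library. Among low-level rises, Sntg1, a syntrophin, gave 3.11 (SE 0.57) and Kcnj5, an inwardly rectifying potassium channel, 2.21 (SE 0.38), each from 10 or fewer counts in every wild-type library.

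Of the thyroid's own genes, Foxe1, the forkhead factor needed for thyroid development, fell. It measured 240.6, 278.5 and 200.9 CPM in wild type, 117.9, 147.2 and 173.5 CPM with the Arid2 label and 44.7, 61.8 and 50.9 CPM with the Smarcb1 label. All 6 lay below wild type, and the Smarcb1-labelled libraries lay below the Arid2-labelled ones. The change was -1.45 in log2 units (SE 0.15, adjusted p = 0.00415), and the call was made in all 9 fits that left out a library, but the genotypes differed (-0.71 and -2.19, adjusted p of the difference 0.0047). Foxe1 was the 1 call among 5 thyroid transcription factors, whose median was -0.34. With the GC trend removed it gave -1 (adjusted p = 0.00783). Pax8 and Nkx2-1, the paired-box and homeobox factors of the thyroid lineage, gave -0.34 (adjusted p = 0.223) and -0.39 (adjusted p = 0.19), Hhex -0.04 and Glis3 0.25.

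Among 25 tested genes of thyroid hormone production, 1 fell, 0 rose and 8 were positive, with a median of -0.10. The fall was that of Duoxa1, the maturation factor of the peroxide generator Duox1, at -1.59 (SE 0.30, adjusted p = 0.0408). Duoxa1 had levels of 11.7, 19.4 and 22.1 CPM in wild type, 2.39, 2.94 and 3.57 CPM with the Arid2 label and 8.96, 7.58 and 18.6 CPM with the Smarcb1 label, so the Smarcb1-labelled group overlapped wild type. It was called in 2 of the 9 fits that left out a library, and without the libraries with Rag1 above 10 CPM it gave -1.45 (adjusted p = 0.0652). Slc5a5, the sodium iodide symporter, measured 389, 533 and 478 CPM in wild type, 105, 143 and 134 CPM with the Arid2 label and 386, 462 and 113 CPM with the Smarcb1 label. Its log2 fold change of -1.21 did not pass (SE 0.35, adjusted p = 0.127), and the Smarcb1-labelled libraries overlapped wild type. Tg gave -0.05 (adjusted p = 0.94) and the TSH receptor gene Tshr -0.14 (adjusted p = 0.745). Duox1 gave -1.25 (adjusted p = 0.175), Duox2 -0.10, Duoxa2 -0.02, the iodotyrosine dehalogenase Iyd -0.05 and the deiodinase Dio1 -0.36. The iodide exporter Slc26a4 was too low to be tested.

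Dio3, the deiodinase that inactivates thyroid hormone, was a common fall and the 1 call among 13 genes of thyroid hormone action. It had 51, 68 and 45 counts in wild type, 13, 15 and 23 in the Arid2-labelled and 30, 23 and 12 in the Smarcb1-labelled libraries. In CPM the wild-type libraries stood at 1.55, 1.94 and 1.33 and the others between 0.143 and 0.763, a change of -2.14 in log2 units (SE 0.34, adjusted p = 0.0246). Leaving out 1 library ended the call in 6 of 9 cases, with the highest adjusted p of 0.117 without wild-type replicate 2.

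Signalling through the MAPK pathway and immediate early genes was read from 2 lists. Of 21 tested MAPK targets and feedback genes, 1 fell, 0 rose and 14 were positive (median 0.19). Spry1, a feedback inhibitor of receptor tyrosine kinases, measured 62.7, 51.7 and 71.1 CPM in wild type and between 35.6 and 45.8 CPM in the others. Its log2 fold change was -0.59 in both genotypes together and in each (SE 0.12, adjusted p = 0.0444), and 1 of the 9 fits that left out a library called it. Spred3, another feedback inhibitor of the pathway (0.95, adjusted p = 0.0554), and the ETS factor Etv1 (0.92, adjusted p = 0.0749) stood higher, and Phlda1 (-0.67, adjusted p = 0.062) lower, in all 6 libraries than in wild type, and none of the 3 passed. Such non-overlap, in either direction, held for 4 of the 21 genes and for 6.69% of all tested genes. Of 21 immediate early genes, 1 fell. Jund, an AP-1 subunit, had levels of 85.6, 100.1 and 87.5 CPM in wild type, 63.2, 63.7 and 53.3 CPM with the Arid2 label and 34.5, 35.4 and 30.6 CPM with the Smarcb1 label. The groups formed 3 separate levels. The change was -1.02 in log2 units (SE 0.09, adjusted p = 0.0036), and the genotypes were called different. Jund has a GC content of 67.1%, and with the GC trend removed it gave -0.20 (adjusted p = 0.537). Junb gave -1.25 (adjusted p = 0.0594) and Fosb 1.91 (adjusted p = 0.083), the latter from 11 or fewer counts in each wild-type library. Junb passed without the libraries with Rag1 above 10 CPM (-1.58, adjusted p = 0.00449), but not with the GC trend removed (-0.85, adjusted p = 0.0791). Phlda1 passed with the GC trend removed (-0.48, adjusted p = 0.0414), but not without those libraries (-0.78, adjusted p = 0.0604).

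The mitosis list had 24 of 24 genes positive with a median of 0.83, and 0 passed an adjusted p under 0.05, while 16 had an unadjusted p under 0.05 (3015 of 17079 over all genes). Over all tested genes 53.9% were positive. The median was 1.40 in the Arid2-labelled and 0.32 in the Smarcb1-labelled libraries. Kif11, a spindle kinesin, stood at 35.3 CPM in Arid2-labelled replicate 1, the library with the most Rag1, at 7.43 and 11.8 CPM in the other Arid2-labelled, 5.34, 9.98 and 5.33 CPM in the Smarcb1-labelled and 3.49, 2.59 and 4.95 CPM in wild type. The estimated log2 change was 1.61 (SE 0.51, adjusted p = 0.157), and Cdk1, the mitotic kinase, gave 0.79 (adjusted p = 0.161). Without the libraries with Rag1 above 10 CPM the list's median was 0.51. The S-phase list had 21 of 24 genes positive with a median of 0.36, or 0.11 without those libraries, and 0 called. Ccne1, the cyclin of S-phase entry, came nearest (1.14, SE 0.25, adjusted p = 0.0618).

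Genes of the complexes themselves held no call. Of 29 tested SWI/SNF subunit genes, 19 were positive with a median of 0.11, and 0 were called. An unadjusted p under 0.05 was found for 6 of the 29, and for 3015 of 17079 over all tested genes. Smarcc1, a core scaffold subunit, gave 0.37 (SE 0.11, adjusted p = 0.132) and stood above wild type in all 6 libraries. Such non-overlap, in either direction, held for 4 of the 29 genes and for 6.69% of all tested genes. Of 28 Polycomb repressor genes, whose products oppose SWI/SNF at many promoters, 20 were positive with a median of 0.14, and 0 were called. Of the 28, 6 had an unadjusted p under 0.05, beside the same 3015 of 17079 over all tested genes. Ezh2, the methyltransferase of Polycomb repressive complex 2, gave 0.64 (adjusted p = 0.201), with its highest value, 51.1 CPM, in Arid2-labelled replicate 1.

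The remaining lists held few calls. Cadm3, described with the unequal calls, was the 1 rise among 27 junction and polarity genes. Crb3, an apical polarity protein, was the 1 fall there and a common change (-0.58, SE 0.10, adjusted p = 0.0302). Derl3, of endoplasmic reticulum-associated degradation, was the 1 call among 26 folding and quality control genes (-0.69, SE 0.11, adjusted p = 0.0263), with 82.4, 58.6 and 64.0 CPM in wild type and between 40.6 and 47.5 CPM in the 6 others. Calls whose genotypes differed were those of Bbc3, the p53 target Puma (-1.28, or -0.66 at an adjusted p of 0.119 with the GC trend removed), Dkk3, a Dickkopf-related secreted protein (-0.66), Ndufa7 of respiratory complex I (-0.56), the mitochondrial ribosomal gene Mrps34 (-1.77), Pcsk1n, a convertase inhibitor of neuroendocrine cells (-2.46), and Bbox1 of carnitine synthesis (2.45). The lists of circadian clock, Hippo, interferon, MHC, heat shock, glycolysis and sterol synthesis genes held 0 calls.

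**Figure D3:**
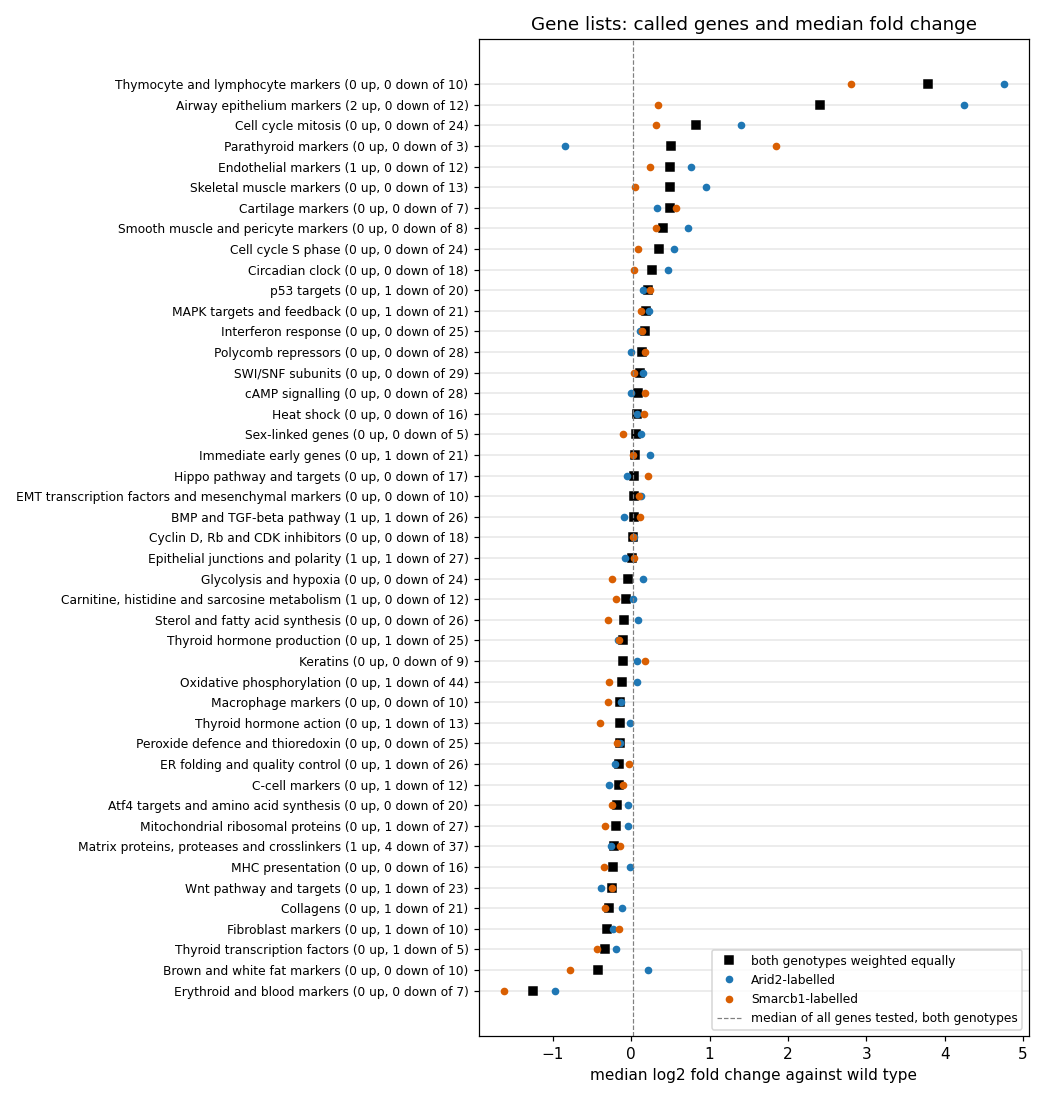
Median log2 fold change against wild type of 45 gene lists for both genotypes weighted equally (black squares), Arid2-labelled (blue) and Smarcb1-labelled (orange) thyroid, with the number of tested members called higher and lower; the dashed line is the median of all tested genes. For both genotypes weighted equally, pathway medians other than mitosis lie between -0.34 (thyroid transcription factors) and 0.36 (S phase). The lists outside this range are mitosis and markers of other cell types, while fibroblast, macrophage and C-cell markers lie within it.

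Markers of other tissues gave the widest list medians, and their members were mostly not called. Airway epithelium markers had a median of 2.41, with 4.25 in Arid2-labelled and 0.34 in Smarcb1-labelled thyroid, and 2 of 12 rose: the surfactant gene Sftpd (4.98, SE 0.62) and the secretoglobin Scgb3a1 (2.90, SE 0.40). Of the 12, 9 were positive. Over all tested genes 53.9% were positive and 0.34% were called higher. The summed level of the list was 95.9 to 167 CPM in wild type and 85.1, 90.7 and 284 CPM with the Arid2 label. It was 9.49, 439 and 35.2 CPM with the Smarcb1 label, so each knockout-labelled group reached both below and above wild type. Sftpd had 3, 2 and 1 counts in wild type, 251, 663 and 323 in the Arid2-labelled and 24, 36 and 15 in the Smarcb1-labelled libraries. For Scgb3a1 the Smarcb1-labelled libraries stood at 0.271 to 0.769 CPM, over the wild-type range of 0.285 to 0.534 CPM. Muc5b, an airway mucin, gave 2.68 (adjusted p = 0.0711). Thymocyte and lymphocyte markers had a median of 3.78 with 0 of 10 called, and their sum reached 1550 CPM in replicate 1 of the Arid2-labelled and 282 CPM in replicate 2 of the Smarcb1-labelled group against 10.6 to 18.3 CPM in wild type. Erythroid and blood markers were negative for 7 of 7 with a median of -1.25. The alpha-globin gene Hba-a1 ranged from 68.6 to 471 CPM in wild type, 83.7 to 217 CPM in Arid2-labelled and 10.1 to 30.5 CPM in Smarcb1-labelled thyroid (-2.42, adjusted p = 0.0711), and Hbb-b1 gave -1.74 (adjusted p = 0.0979). The parathyroid sum ran from 8.16 to 4320 CPM in wild type, 10.6 to 1580 CPM in the Arid2-labelled and 6090 to 17000 CPM in the Smarcb1-labelled libraries. With the mean level of Pth, Gcm2 and Casr as a covariate, 89 genes were called, 83 of them among the 267, and 55 met the common rule, 31 of them among the 115. Grem1, Galns, Slc15a2, Mybl1, Stc1, Tmem117, Apobec3, Pgm5, Trim56, Gimap6, Sntg1, Kcnj5 and Bbox1 were among the rises then not called. Among the falls then not called were Rbpjl, Scx, Dclk3, Zfp580, Mtap1a, Emilin1, Pcbp1, Serping1, Mmp2, Spry1, Crb3, Derl3, Dio3, Duoxa1 and Ptgds. Tmem63a, Matn4, Tril, Plxna2, Gimap4 and Emcn were called.

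**Figure D4:**
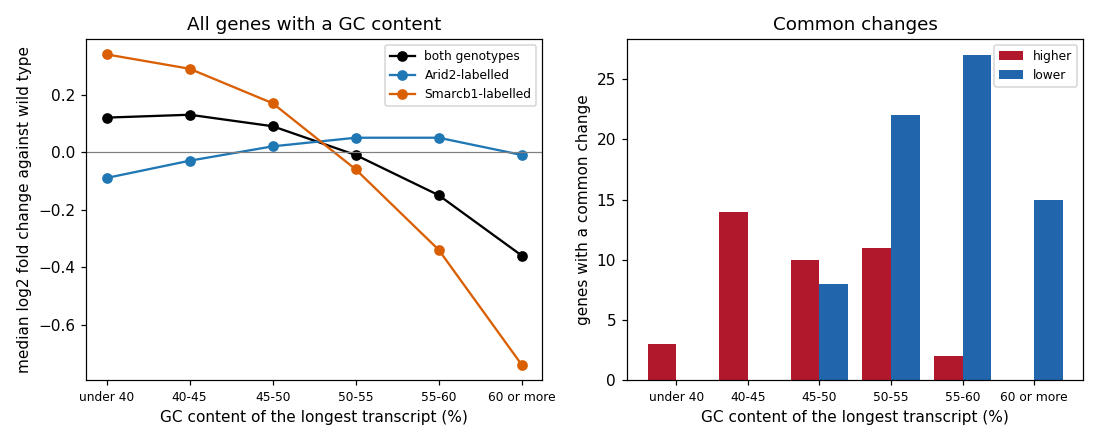
Left, median log2 fold change against wild type of all tested genes by GC content of the longest transcript, for both genotypes (black), Arid2-labelled (blue) and Smarcb1-labelled (orange) libraries; right, number of common rises and falls in the same classes. The Smarcb1-labelled median falls from 0.34 to -0.74 from the lowest to the highest class while the Arid2-labelled median stays between -0.09 and 0.05, and the common falls lie in the classes of 45% and above.

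GC content moved with the direction of change. Over genes with at least 60% GC the median log2 fold change was -0.36, with -0.01 in the Arid2-labelled and -0.74 in the Smarcb1-labelled libraries, and 8.69% of these genes were called, 0 higher and 59 lower. Under 40% GC the median was 0.12, and 0.521% were called. The common rises had a median GC content of 47.6% and the common falls of 55.6%, against 49.8% over all tested genes. Of the common changes in the highest class, 0 were rises and 15 were falls, and in the lowest class 3 were rises and 0 were falls. With each library's GC trend removed, 163 genes were called, 24 higher and 139 lower, of which 129 were among the 267, and 79 met the common rule, of which 42 were among the 115. Tmem63a, Matn4, Tril, Plxna2, Eif3j, Abhd2 and Galns were called in that fit, and Gimap4, Gimap6, Emcn, Grem1, Nrxn2, Mmp2 and Spry1 were not. Nor were Slc15a2, Mybl1, Cd38, Stc1, Pgm5, Adamts1, Sntg1, Bbox1, Emilin1, Fbln1, Col5a1, Crb3, Derl3 and Ptgds. Pcbp1 (-0.28), Loxl1 (-0.62, adjusted p = 0.115) and Smad6 (-0.64, adjusted p = 0.127) also lost the call. The genes listed above in this paragraph as not called all had a smaller fold in that fit than in the main one. Examples are Nrxn2 (-0.94) and Emilin1 (-0.72). Nkd2 (-1.18, against -1.17 in the main fit), Serping1 (-0.49 against -0.45) and Gdf10 (-0.75 against -0.71) were not called either. The folds of these last genes were not smaller.

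The 4 calls with the smallest p for the difference between the genotypes were those of Cadm3, Scand1, Srd5a1 and Gm9781, though other calls, such as Scgb3a1, differed by more. Scand1, a SCAN-domain gene, measured 15.1, 18.2 and 15.9 CPM in wild type, 9.12, 8.04 and 12 CPM with the Arid2 label and 0.483, 0.747 and 0.379 CPM with the Smarcb1 label. All 6 lay below wild type, and the fold over both, -2.84 (SE 0.20, adjusted p = 0.00196), averaged -0.75 and -4.92. Srd5a1, a steroid 5-alpha-reductase, gave -1.11 from 0.57 and -2.79, and Cadm3, a cell adhesion molecule, gave 1.10 from 2.61 and -0.42. Gm9781, a provisional symbol, gave -2.26 from -4.25 and -0.27. In Srd5a1 and Cadm3 the equal-weight value thus stood for opposite directions, which was so for 10 of the 267 calls.

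**Figure D5:**
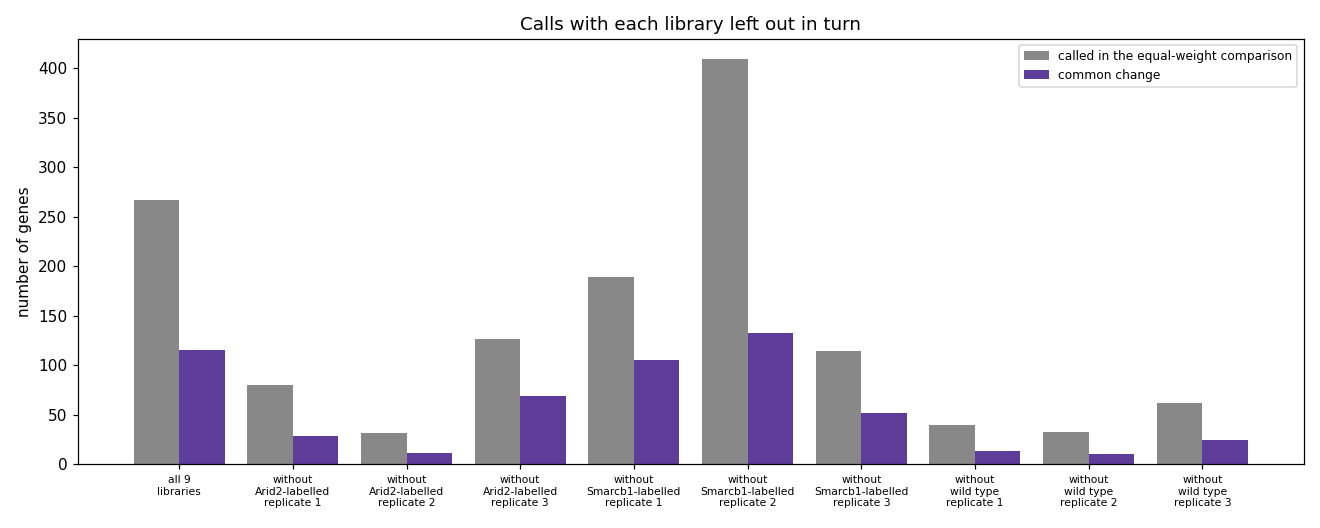
Number of genes called with both genotypes weighted equally (grey) and with a common change (purple), with all 9 libraries and with each library left out in turn. The counts fall to 32 and 11 without Arid2-labelled replicate 2, to 33 and 10 without wild-type replicate 2 and to 40 and 13 without wild-type replicate 1, and rise to 409 and 133 without Smarcb1-labelled replicate 2.

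The counts depended on single libraries more than on scaling. Leaving out Arid2-labelled replicates 1, 2 and 3 gave 80, 32 and 126 calls, leaving out Smarcb1-labelled replicates 1, 2 and 3 gave 189, 409 and 114, and leaving out wild-type replicates 1, 2 and 3 gave 40, 33 and 62. The common count was 29, 11 and 69, then 105, 133 and 52, then 13, 10 and 25 in the same order. Without both libraries with Rag1 above 10 CPM, 211 genes were called and 50 met the common rule, of which 34 were among the 115. Of the rises described, those of Grem1 (adjusted p = 0.0594), Galns (0.0732), Mybl1 (0.0576), Cd38 (0.0515), Stc1 (0.0834), Tmem117 (0.0538), Apobec3 (0.0538), Pgm5 (0.0882), Trim56 (0.104), Adamts1 (0.0604), Kcnj5 (0.0635) and Bbox1 (0.0798) were then not called. Of the falls described, those of Rbpjl (0.0579), Caskin1 (0.0709), Nkd2 (0.0586), Zfp580 (0.057), Mtap1a (0.056), Emilin1 (0.0579), Pcbp1 (0.0537), Serping1 (0.0646), Spry1 (0.0511), Col5a1 (0.0579), Mmp2 (0.0507), Loxl1 (0.0501), Fbln1 (0.0732), Crb3 (0.0579) and Derl3 (0.0508) were not. Nor were Duoxa1 (0.0652), Slc22a12 (0.0562), Lap3 and Med28. Further genes that lost the call are given with the other observations. Across the fits that left out 1 library, 22 of the 267 calls were made every time, 0 of them higher, and 14 were made in none. A model of 2 groups with no genotype term, in which the difference between the genotypes adds to the spread, called 3 genes: Gm4737, Gm9770 and Tmem63a.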

How the data were processed

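RNA from flash-frozen mouse thyroids was extracted in TRIzol, and a TruSeq RNA kit served for library preparation, per the labels' protocols. The deposited values are whole-number read counts per gene without normalization, for 9 libraries. The submitters' processing notes list the tools HTSeq 0.6.1, STAR 2.4 and DESeq2 and the build mm9, without their role. Counting by strand is not given in the sources used here. PCR copies of a molecule could not be told from separate molecules. Libraries of 1 group were no copies of each other, with a chi-square of 47.6 to 122 per degree of freedom between their counts.

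Groups came from the genotype labels. All 9 libraries entered 1 edgeR 4.0.16 quasi-likelihood fit (R 4.3.3) of 3 group means, with TMM scaling, filterByExpr by group, 6 residual degrees of freedom and no covariate. The contrast was the mean of both knockout groups minus wild type. It tested 17079 of 33924 genes (8005 had 0 counts throughout), and the threshold for a call was 0.05 after Benjamini-Hochberg adjustment. Only the targeted genes had an exact permutation test, on log2(CPM + 1). The comparison, the 45 lists and the rules were chosen with earlier results of these data known. The text names the targeted genes, the 12 largest rises, 12 largest falls and 6 most abundant genes among common changes whose symbol was not provisional and whose average log2 CPM was 1 or more, the 4 calls with the smallest p for the difference between genotypes, the thyroid factors and main thyroid genes, and up to 4 members of each list with the smallest p. Abhd2, Gimap5, Gimap6, Adamts1, Ptgds, Clic3, Slc16a8, Gm4737, Gm9770, Sntg1 and Kcnj5 were added after their values were seen. A gene that the rule names is not reported here.

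Alternatives were DESeq2 size factors, upper-quartile scaling, library totals, other filters, the DESeq2 1.42.0 Wald test, limma 3.58.1 voom, a robust spread, 2 groups without a genotype term, stricter thresholds, removal of each library's GC trend (spline, 5 degrees of freedom), a parathyroid covariate, omission of libraries with Rag1 above 10 CPM, thinning to the smallest total and omission of each library. GC content came from the longest transcript in the GRCm38 annotation, for 97.3% of tested genes. Promoters came from RefSeq (GRCm38.p6), a different build from the counts. On simulated counts over 16888 genes, the common rule recovered 34 of 50 genes changed 2-fold in both genotypes and 46 of 50 changed 4-fold, and 4 of 16688 unchanged genes were called. The simulated counts were drawn independently for each gene, with no GC trend and no differing content of other tissues. Genes of the lowest levels were left out of the changed set. These counts therefore need not hold for the deposited libraries.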

Additional observations from a re-analysis of the deposited data

Results flagged for a closer look

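Among 101 genes described above or named by the same rules, 9 had 1 knockout-labelled library far from the other 5 by Dixon's test for 6 values. The test's rate of about 1 in 20 is for 6 values of 1 group. These 6 values came from 2 genotypes, so that rate need not hold here and the 9 are given as a description. Mybl1 stood highest in Smarcb1-labelled replicate 2 (7.85 CPM). In Smarcb1-labelled replicate 1, Emilin1 (6.03 CPM) and Pecam1 (101.8 CPM) stood lowest and Iyd highest (1022 CPM). Trim56 stood lowest in Arid2-labelled replicate 3 (87.3 CPM), and Duox1 (6.06 CPM) and Derl3 (47.5 CPM) stood highest in Smarcb1-labelled replicate 3. Kif11 (35.3 CPM) and Ezh2 (51.1 CPM) stood highest in Arid2-labelled replicate 1, the library with the most thymus markers, whose part in these values was not tested.

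For 22 of the genes the Smarcb1-labelled and Arid2-labelled effects differed at an adjusted p under 0.05 in edgeR's quasi-likelihood test of the difference, so the equal-weight value averages unequal effects. The difference, Smarcb1-labelled minus Arid2-labelled on the log2 scale, was -5.16 for Scgb3a1, -4.16 for Scand1, -3.36 for Srd5a1, -3.31 for Sftpd, -3.19 for Hba-a1, -3.17 for Muc5b, -3.10 for Mrps34, and -3.03 for Cadm3 and for Pcsk1n. It was -2.20 for Bbox1, -1.86 for Junb, -1.56 for Bbc3, -1.48 for Foxe1, -1.27 for Smad6, -0.91 for Col1a1, -0.84 for Jund, -0.80 for Col5a1 and -0.71 for Ndufa7. The sign was opposite for Gm9781 (3.98), Duoxa1 (1.98), Dkk3 (0.85) and Spon1 (0.78).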

How the results depend on the processing

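Of 267 calls and 115 common changes, library totals gave 150 and 62, the DESeq2 Wald test 1136 and 423, 2 groups without a genotype term 3 and 3, an adjusted p under 0.01 24 and 4, a fold of at least 2 131 and 60, GC removal 163 and 79, and the parathyroid covariate 89 and 55. Without the libraries with Rag1 above 10 CPM there were 211 and 50. Other scalings, filters, limma-voom, a robust spread and thinning gave 194 to 288 and 81 to 125. The common count was 18 where each genotype had to be called, and 202 with no condition on the genotype difference. Leaving out 1 library gave 32 to 409 calls, 10 to 133 common changes and 395 to 4411 genotype differences. The 2779 genotype differences became 4337 with the DESeq2 Wald test, 1075 with GC removal and 145 with the parathyroid covariate. The cause was not tested. The share of calls that were lower was 78.3%, and 68.8% in the DESeq2 Wald test. All 115 common changes had the same sign in every setting that tested them, which their choice by libraries that do not overlap makes likely. Signs reversed for genes near 0 (without 1 library, Hhex and Tg reached -0.12, Duox2 -0.21 and Duoxa2 -0.16): Hhex (0.02), Tg (0.07) and Duox2 (0.06) without wild-type replicate 1, and Duoxa2 without the Rag1 libraries (0.03), Arid2-labelled replicate 1 (0.05), wild-type replicate 1 (0.06) or wild-type replicate 2 (0.04). No paired analysis was possible because the labels give the groups no shared replicate numbers. The number of libraries, 3 a group, limits precision more than depth, and genes under a few counts per library carry large counting error.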

Other observations

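Further common changes were not in any list. Wee1, the kinase that holds back mitotic entry, rose by 1.01, and Ptgs1, the constitutive cyclooxygenase, by 0.78. Ptk7, a receptor of planar cell polarity, changed by -0.59, Inha, the inhibin alpha subunit, by -1.02, Nbl1, a secreted BMP antagonist, by -0.80, and Gdf10, a BMP-family ligand, by -0.71 on the log2 scale. Fbp1, the gluconeogenic fructose bisphosphatase, gave -1.03 and Lap3, a leucine aminopeptidase, -0.66. These 8 genes were chosen after their values were seen, all passed the same edgeR test (adjusted p under 0.05), and their values are given as a description. Each was called in 1 to 3 of the 9 fits that left out a library. Without the libraries with Rag1 above 10 CPM, Wee1, Ptgs1, Gdf10, Nbl1 and Lap3 were not called. With the GC trend removed, Nbl1 gave -0.46 (adjusted p = 0.139) and Ptk7 -0.38 (adjusted p = 0.148), and Gdf10 (0.0681), Wee1 (0.0779) and Ptgs1 (0.0631) were not called either.

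The 115 common changes included 34 with a provisional symbol or an average log2 CPM under 1. Some had few counts: in the wild-type libraries Gm13483 had 3, 0 and 2 counts and the mitochondrial tRNA gene mt-Tc 2, 0 and 4, against 14 to 40 and 16 to 39 in the knockout-labelled libraries. Short RNAs such as mt-Tc are poorly kept by this kind of library, so such counts are uncertain. Neither Gm13483 nor mt-Tc was called without the libraries with Rag1 above 10 CPM.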
